A study of Mus musculus with 5 samples.

Results

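A set of 10 genes that mark lymphocytes and plasma cells was followed in injured mouse kidneys, chosen by name: Cd3e, Cd3g, Cd4 and Cd8a of T cells, Nkg7 and Gzma of cytotoxic lymphocytes, Cd79a and Ms4a1 of B cells, and Jchain and Mzb1 of antibody-secreting plasma cells. All 10 were among the 35478 genes listed, and 9 of them were among the 16394 genes with enough counts to be tested; Ms4a1 was not. RNA-seq was made from the kidney cortex of 2 Prdm16fl/fl mice, numbered 1 and 3, and 3 Ksp-Cre/Prdm16fl/fl mice, numbered 1, 2 and 3, with 1 library per mouse. All were males of a C57BL/6J;129 background aged 7 to 8 weeks, littermates served as controls, and both genotypes carried the floxed Prdm16 allele. Every mouse underwent unilateral ischaemia-reperfusion injury (UIRI): the left renal pedicle was clamped for 35 min at 38.5 °C, the right kidney was removed on day 10 and the left kidney was collected on day 11, so there was no uninjured group.

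The Ksp promoter, that of cadherin 16, drives Cre in tubular epithelium, so the lymphocytes studied here carried the floxed allele without being the cells in which Cre is driven. Prdm16 itself had 375 and 279 counts in the Prdm16fl/fl mice and 302, 287 and 270 counts in the Ksp-Cre/Prdm16fl/fl mice. Per 1000000 counts after TMM scaling, these were 25.28 and 20.02 against 17.14, 16.95 and 17.99. On this scale Prdm16 was lower in every Ksp-Cre/Prdm16fl/fl mouse than in both controls, as were 21.3% of all tested genes. Since gene counts include reads outside the floxed exon, neither scale checks its deletion. Total counts ranged from 14939040 to 16425161. The library of Ksp-Cre/Prdm16fl/fl mouse 3 stood apart: its correlation of log2 CPM (counts per 1000000, after TMM scaling) with the other libraries across genes was 0.939 to 0.957, against 0.969 to 0.991 among the other 4 libraries. Results that rest on this library are therefore given with and without it.

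T cells recognise antigen through a receptor whose signal is passed on by the CD3 chains, while CD4 and CD8 are coreceptors that bind class II and class I major histocompatibility molecules and mark helper and cytotoxic T cells. Cytotoxic T cells and natural killer (NK) cells kill targets with granules that hold perforin and granzymes. B cells carry CD20, encoded by Ms4a1, and a receptor that signals through CD79A. Once they become plasma cells they lose CD20 and secrete antibody, with the J chain joining the units of polymeric IgA and IgM. After ischaemic injury, T cells enter the kidney within days, and B cells and plasma cells collect in it during later repair.

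Promoter windows of 2 T cell or cytotoxic genes and 1 B cell gene are shown. They hold matches to short motifs that lymphocyte transcription factors bind. They run from 250 bases before to 50 bases after the start in the RefSeq annotation of GRCm38.p6, 5′ to 3′ on the gene's strand, and capitals mark matches to GAGGAA, an ETS box of PU.1 type, or to TGTGGT, the RUNX motif, on either strand. The windows are chr9:45009562-45009861 (minus strand) for Cd3e, chr13:113100932-113101231 (minus strand) for Gzma and chr7:24897247-24897546 (plus strand) for Cd79a.
Cd3e: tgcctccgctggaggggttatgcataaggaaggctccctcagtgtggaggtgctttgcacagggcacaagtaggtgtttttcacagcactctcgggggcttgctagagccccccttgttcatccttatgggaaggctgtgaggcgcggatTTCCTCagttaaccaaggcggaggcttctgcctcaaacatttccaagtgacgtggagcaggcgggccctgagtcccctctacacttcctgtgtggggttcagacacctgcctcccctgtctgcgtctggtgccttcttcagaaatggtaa
Gzma: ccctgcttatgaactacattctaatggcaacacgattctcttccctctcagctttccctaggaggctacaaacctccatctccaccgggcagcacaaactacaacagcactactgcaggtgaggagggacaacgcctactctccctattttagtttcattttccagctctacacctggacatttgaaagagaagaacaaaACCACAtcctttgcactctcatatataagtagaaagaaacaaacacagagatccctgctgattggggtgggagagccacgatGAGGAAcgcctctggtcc
Cd79a: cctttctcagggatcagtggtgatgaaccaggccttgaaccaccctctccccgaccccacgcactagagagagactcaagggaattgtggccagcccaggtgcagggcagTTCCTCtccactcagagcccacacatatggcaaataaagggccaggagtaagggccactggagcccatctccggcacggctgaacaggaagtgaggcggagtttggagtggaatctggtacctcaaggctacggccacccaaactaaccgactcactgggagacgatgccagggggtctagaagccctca
Of the 10 genes, 7 had a promoter in the table used, and Cd4, Ms4a1 and Mzb1 did not. GAGGAA was present in 4 of these 7 windows (Cd3e, Cd8a, Gzma and Cd79a) and in 28.3% of all 32851 promoter windows of this length. Its match began before the start in Cd3e (base −100), Cd8a (−130) and Cd79a (−140). In Gzma it began at base 33 after the start, so it lies in the transcribed part and not upstream. TGTGGT was present in 2 of 7 (Nkg7 and Gzma) against 16.8% of all windows. The E-box CAGCTG was in 2 of 7 (Cd8a, and Cd3g at base 24 after the start) against 16.3%. The octamer ATTTGCAT, present in 1.74% of windows, and TATAAA, present in 13.6%, were in none of the 7. These matches describe letters only, and the motifs do not overlap each other within the windows shown.

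Levels were first set side by side per gene length, as TPM, the deposited count per gene length scaled to the same total in every library. In the Prdm16fl/fl mice Jchain stood highest at 27.2 ± 1.57 TPM (SD, n = 2), above Cd3g at 21.4 ± 0.322, Nkg7 at 20.8 ± 0.671 and Mzb1 at 19.8 ± 5.08, which did not differ beyond their spread. Cd8a followed at 10.5 ± 0.331, then Cd3e at 6.52 ± 0.871, Gzma at 6.40 ± 1.14 and Cd4 at 5.53 ± 1.19, the last 3 within their spread of each other. The B cell genes were lowest, with Cd79a at 1.37 ± 0.463 TPM and Ms4a1 at 0.660 ± 0.272 TPM. In the Ksp-Cre/Prdm16fl/fl mice the order was the same apart from Gzma, which stood at 3.60 ± 1.56 TPM (n = 3), below Cd4 at 5.77 ± 2.68 TPM. Between mice, levels are given below as CPM, and the plot of CPM by mouse shows all 10 genes.

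**Figure D1:**
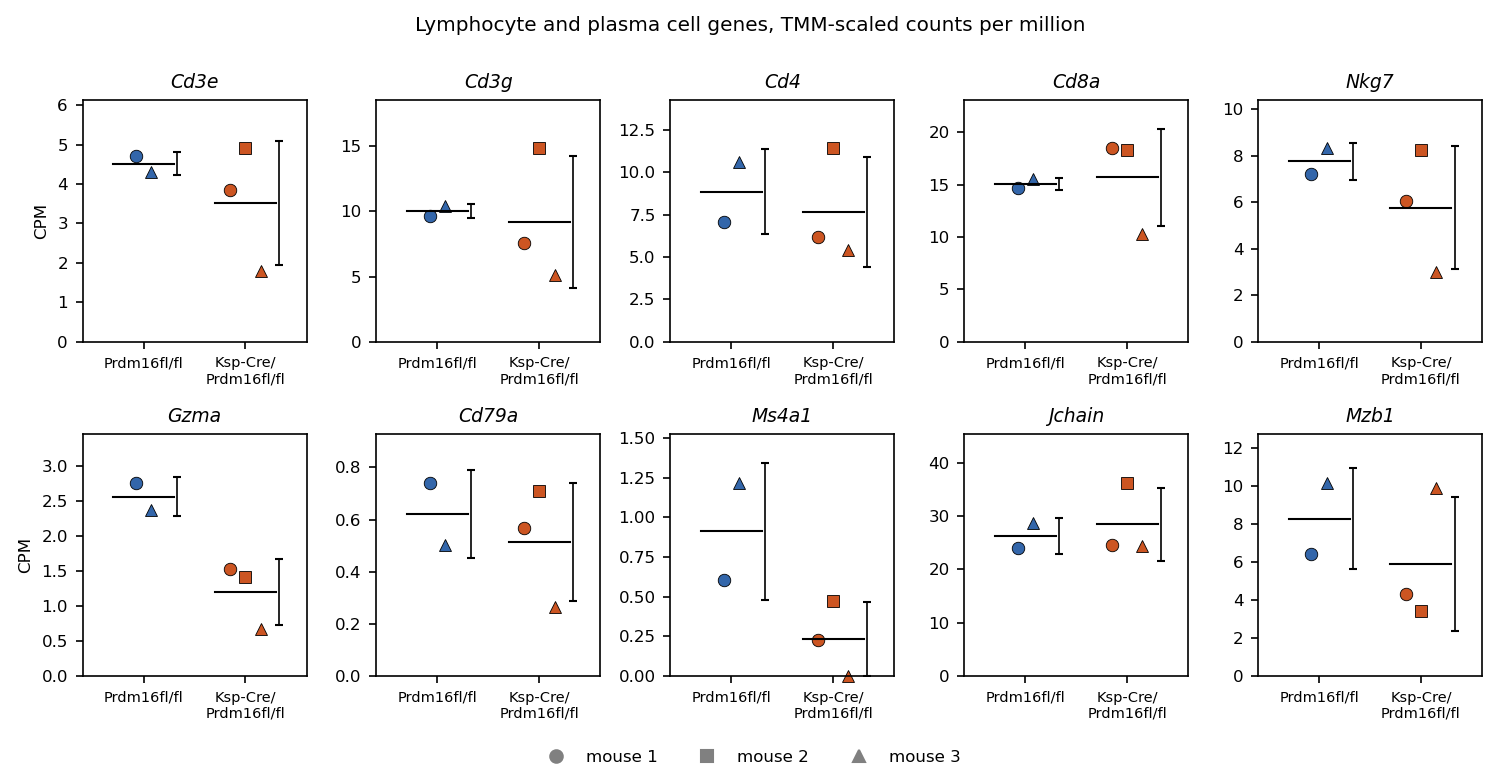
TMM-scaled CPM (y axis, from 0) of the 10 genes in each mouse; blue points are Prdm16fl/fl mice and orange points Ksp-Cre/Prdm16fl/fl mice, shapes give the mouse number, lines the group mean and bars 1 SD (cut at 0 for Ms4a1). Gzma and Ms4a1 are lower in all 3 Ksp-Cre/Prdm16fl/fl mice than in both Prdm16fl/fl mice, and mouse 3 of the Ksp-Cre group is lowest of all 5 for 8 of the 10 genes.

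T cell genes were present in every kidney, and none of the 4 passed the test between the genotypes. Cd3e (files: chromosome 9, 44910033 to 44920961, minus strand), a signalling chain of the T cell receptor complex, stood at 4.72 and 4.31 CPM in mice 1 and 3 of the Prdm16fl/fl group and at 3.86, 4.90 and 1.80 CPM in mice 1, 2 and 3 of the Ksp-Cre group. The groups overlapped, since mouse 2 of the Ksp-Cre group was the highest of all 5 and mouse 3 the lowest. The log2 fold change was −0.35 (SE 0.43, 95% interval −1.40 to 0.69; edgeR quasi-likelihood test, adjusted p = 0.698). Without Ksp-Cre/Prdm16fl/fl mouse 3 it was −0.042 (edgeR adjusted p = 0.918).

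Cd3g (chromosome 9, 44880870 to 44891729, minus strand), separated from Cd3e by Cd3d on the opposite strand, encodes another chain of the complex. It stood at 9.64 and 10.4 CPM in the Prdm16fl/fl mice and at 7.55, 14.8 and 5.13 CPM in the Ksp-Cre/Prdm16fl/fl mice. The 2 control mice lay inside the range of the other group, which spanned 2.89-fold. Its log2 fold change was −0.13 (SE 0.44, 95% interval −1.19 to 0.94; edgeR adjusted p = 0.902), and 0.16 when mouse 3 of the Ksp-Cre group was left out. In counts, Cd3g had 77 to 251 reads per library and Cd3e 27 to 83.

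Cd4 (chromosome 6, 124841656 to 124865210, minus strand), the coreceptor of helper T cells that some macrophages and dendritic cells also carry, stood at 7.08 and 10.6 CPM in the Prdm16fl/fl mice and at 6.19, 11.4 and 5.40 CPM in the Ksp-Cre/Prdm16fl/fl mice. Its groups overlapped, and the log2 fold change was −0.21 (SE 0.38, 95% interval −1.14 to 0.73; edgeR adjusted p = 0.808). Cd8a (chromosome 6, 71350411 to 71356155, plus strand), the α chain of the coreceptor of cytotoxic T cells, stood at 14.7 and 15.5 CPM against 18.4, 18.3 and 10.3 CPM. Here mice 1 and 2 of the Ksp-Cre group were above both controls and mouse 3 was below them, and the log2 fold change was 0.058 (SE 0.28, 95% interval −0.62 to 0.73; edgeR adjusted p = 0.928). Without Ksp-Cre/Prdm16fl/fl mouse 3, the log2 fold change was −0.0059 for Cd4 and 0.29 for Cd8a (edgeR adjusted p = 0.148).

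The ratio of Cd4 to Cd8a counts, which does not depend on library scaling, was 0.482 and 0.685 in the Prdm16fl/fl mice and 0.335, 0.623 and 0.523 in the Ksp-Cre/Prdm16fl/fl mice. Cd4 had fewer counts than Cd8a in every mouse, also per gene length (a TPM ratio of 0.303 to 0.618), and the 2 groups overlapped. Cd8b1, the partner chain of Cd8a, stood at 4.31 and 6.03 CPM against 4.88, 5.26 and 3.33 CPM. In bulk tissue, fewer cells of a type and less RNA per cell cannot be told apart.

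Of the 2 genes of cytotoxic lymphocytes, Gzma was lower in all 3 Ksp-Cre/Prdm16fl/fl mice, though the difference did not pass the test over all genes. Gzma (chromosome 13, 113230358 to 113237515, minus strand), whose promoter is shown above with positions of another build, encodes granzyme A, a serine protease of killer cell granules. Its level was 2.76 and 2.37 CPM in the Prdm16fl/fl mice and 1.53, 1.42 and 0.666 CPM in the Ksp-Cre/Prdm16fl/fl mice, from 41, 33, 27, 24 and 10 counts. The group means were 2.57 ± 0.280 CPM (SD, n = 2) and 1.21 ± 0.471 CPM (n = 3), and the log2 fold change was −1.08 (SE 0.41, 95% interval −2.08 to −0.073; edgeR, unadjusted p = 0.0393, adjusted p = 0.240). It remained lower without any one library, with a log2 fold change between −1.28 and −0.79 and an edgeR adjusted p between 0.0903 (mouse 3 of the Ksp-Cre group left out) and 0.724 (control mouse 3 left out). These counts are small, and the exact Poisson 95% interval covers counting error only. It ran from 1.63 to 3.33 CPM in Prdm16fl/fl mouse 3 and from 1.01 to 2.23 CPM in Ksp-Cre/Prdm16fl/fl mouse 1, so these 2 libraries overlapped. In Ksp-Cre/Prdm16fl/fl mouse 3 it ended at 1.23 CPM, below the intervals of both controls, which began at 1.98 CPM (mouse 1) and 1.63 CPM (mouse 3).

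Nkg7 (chromosome 7, 43086562 to 43087670, plus strand), a granule membrane protein of NK and cytotoxic T cells, stood at 7.21 and 8.32 CPM in the Prdm16fl/fl mice and at 6.07, 8.27 and 3.0 CPM in the Ksp-Cre/Prdm16fl/fl mice. Only mouse 2 of the Ksp-Cre group reached the range of the controls. The log2 fold change was −0.42 (SE 0.41, 95% interval −1.43 to 0.59; edgeR adjusted p = 0.620), and −0.11 when mouse 3 of the Ksp-Cre group was left out. Summed, the 2 cytotoxic genes came to 9.98 and 10.7 CPM against 7.61, 9.69 and 3.66 CPM.

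The B cell genes among the 10 were close to the limit of detection. Cd79a (chromosome 7, 24596922 to 24601283, plus strand), the signalling chain of the B cell receptor, had 11 and 7 counts in the Prdm16fl/fl mice and 10, 12 and 4 counts in the Ksp-Cre/Prdm16fl/fl mice, or 0.742 and 0.502 CPM against 0.568, 0.709 and 0.267 CPM. The groups overlapped, with a log2 fold change of −0.26 (SE 0.53, 95% interval −1.56 to 1.04; edgeR adjusted p = 0.826), and 0.031 when mouse 3 of the Ksp-Cre group was left out. The Poisson 95% interval of its 4 counts in that mouse reached 0.682 CPM. That of the 7 counts in Prdm16fl/fl mouse 3 began at 0.202 CPM, so these 2 libraries overlapped. With counts this low, the 95% interval of the log2 fold change reached well to either side of 0.

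Ms4a1 (chromosome 19, 11227043 to 11243513, minus strand), which encodes CD20 of mature B cells, had 9 and 17 counts in the Prdm16fl/fl mice and 4, 8 and 0 counts in the Ksp-Cre/Prdm16fl/fl mice. As 0.607 and 1.22 CPM against 0.227, 0.473 and 0.0 CPM, all 3 Ksp-Cre/Prdm16fl/fl mice were below both controls. The count of 0 in mouse 3 allows a level of up to 0.200 CPM (3 counts), and its two-sided Poisson 95% interval reaches 0.246 CPM. An exact two-sided permutation test of CPM over the 5 mice gave p = 0.2, the smallest this permutation test can give with 2 mice against 3. In the edgeR fit without the filter on low counts, Ms4a1 had an unadjusted p of 0.0523 (edgeR adjusted p = 0.381). Pax5, a transcription factor that defines B cells, was as low, with 1 to 6 counts per library. Not all B cell genes were this low. Cd79b, the partner chain of Cd79a, had 39 and 47 counts in the Prdm16fl/fl mice and 51, 62 and 28 counts in the Ksp-Cre/Prdm16fl/fl mice. Its log2 fold change was −0.091 (edgeR adjusted p = 0.915). Cd22 had 20 to 44 counts per library.

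The 2 plasma cell genes had more reads and different orders among the mice. Jchain (chromosome 5, 88667668 to 88675756, minus strand) stood at 23.9 and 28.6 CPM in the Prdm16fl/fl mice and at 24.6, 36.3 and 24.4 CPM in the Ksp-Cre/Prdm16fl/fl mice, from 355 to 614 counts. Of the 9 tested genes it had the narrowest spread within the Ksp-Cre group, 1.49-fold from lowest to highest mouse, and mouse 3 was not the lowest of the 5. Its log2 fold change was 0.11 (SE 0.22, 95% interval −0.42 to 0.65; edgeR adjusted p = 0.813), and 0.22 when mouse 3 of the Ksp-Cre group was left out.

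Mzb1 (chromosome 18, 35780318 to 35782420, minus strand), a chaperone of the endoplasmic reticulum that helps antibody assembly and is also made by marginal zone B cells, stood at 6.40 and 10.2 CPM in the Prdm16fl/fl mice and at 4.31, 3.43 and 9.93 CPM in the Ksp-Cre/Prdm16fl/fl mice. Mice 1 and 2 of the Ksp-Cre group were below both controls, while mouse 3, the lowest library for most of these genes, was within the range of the controls. With all 5 libraries the log2 fold change was −0.50 (SE 0.50, 95% interval −1.71 to 0.71; edgeR adjusted p = 0.625). Without Ksp-Cre/Prdm16fl/fl mouse 3 it was −1.09 and passed the test (edgeR adjusted p = 0.0254), so the call for Mzb1 depended on 1 library.

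The ratio of Jchain to Mzb1 counts ranged widely: 3.74 and 2.81 in the Prdm16fl/fl mice and 5.71, 10.6 and 2.46 in the Ksp-Cre/Prdm16fl/fl mice. Mice 1 and 2 of the Ksp-Cre group were above both controls and mouse 3 was below them. Tnfrsf17, the BCMA receptor of mature plasma cells, had 2 and 1 counts in the Prdm16fl/fl mice and 1, 0 and 1 counts in the Ksp-Cre/Prdm16fl/fl mice. Other genes that plasma cells express had more counts per library: Irf4 66 to 132, Tnfrsf13b 40 to 116, Prdm1 52 to 86 and Derl3 9 to 27. Which cells Jchain came from was not tested. Genes of the immunoglobulin and T cell receptor constant regions were not analysed here.

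Across the 9 tested genes, 7 log2 fold changes were below 0 and 2 above it, with a median of −0.26, against a median of 0.038 over all genes tested. None passed an adjusted p of 0.05 in either direction, where the background over all tested genes was 0.104% called higher and 0.872% called lower. At an unadjusted p under 0.05 in edgeR, 0 of 9 were higher and 1, Gzma, was lower, against 7.64% and 11.2% of all genes. With DESeq2, 0 of the 8 genes that it gave an adjusted p passed in either direction, against 1.98% of all genes higher and 5.80% lower; Cd79a was given none. In 0 of 9 were all Ksp-Cre/Prdm16fl/fl mice above both controls (20.3% of all genes), and in 1 of 9, Gzma, all were below (21.3% of all genes). These shares were near the background. The median was −0.0059 without mouse 3 of the Ksp-Cre group, −0.63 without mouse 2 of that group and −0.13 without control mouse 3, so its size depended on single libraries.

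**Figure D2:**
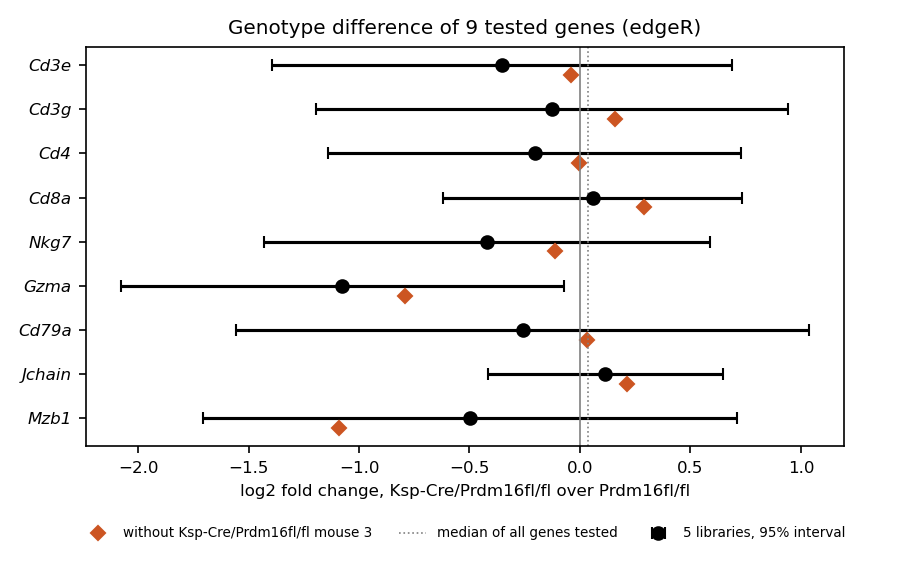
Log2 fold change of Ksp-Cre/Prdm16fl/fl over Prdm16fl/fl mice (x axis) for the 9 tested genes (y axis); black points with bars are the edgeR estimate from 5 libraries and its 95% interval, orange diamonds the estimate without Ksp-Cre/Prdm16fl/fl mouse 3, and the dotted line the median of all tested genes. The interval of Gzma ends at −0.073 and those of the other 8 genes include 0, and without mouse 3 the estimate moves up for every gene except Mzb1.

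The mice of the Ksp-Cre group differed widely among themselves. Mouse 3 was the lowest of the 5 libraries for 7 of the 9 tested genes, where 32.0% of all tested genes were lowest in that library, and for Ms4a1 as well. The fold between the highest and lowest Ksp-Cre/Prdm16fl/fl mouse was 1.49 for Jchain, 1.79 for Cd8a and 2.11 to 2.90 for the other 7 tested genes. Summed over Cd3e, Cd3g, Cd4 and Cd8a, the T cell genes came to 36.1 and 40.8 CPM in the controls and 36.0, 49.4 and 22.7 CPM in the Ksp-Cre/Prdm16fl/fl mice. The sum of the plasma cell genes did not follow this order, at 30.3 and 38.8 CPM against 29.0, 39.7 and 34.3 CPM. Without mouse 3, edgeR called 7.82% of all genes higher and 11.0% lower, and of the 9 genes 0 higher and 1, Mzb1, lower.

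Ptprc, which encodes CD45 and is carried by all leukocytes, was also lowest in that library, at 53.9 CPM against 93.6 to 116 CPM in the other 4. Each gene was therefore also given per 100 Ptprc counts of the same library, a comparison chosen after the values were seen. On this scale the T cell sum was 38.6 and 43.0 in the controls and 33.2, 42.7 and 42.0 in the Ksp-Cre/Prdm16fl/fl mice, so mouse 3 no longer stood below the others. Cd8a came to 15.7 and 16.3 against 17, 15.8 and 19.2, and Cd4 to 7.56 and 11.2 against 5.70, 9.84 and 10.0.

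Gzma was 2.95 and 2.49 per 100 Ptprc counts in the controls and 1.41, 1.22 and 1.24 in the Ksp-Cre/Prdm16fl/fl mice, a ratio of means of 0.474, and on this scale the 3 Ksp-Cre/Prdm16fl/fl mice lay close together. Nkg7 was 7.70 and 8.76 against 5.60, 7.14 and 5.56, and Cd3e was 5.04 and 4.53 against 3.56, 4.23 and 3.34. These 3 of the 9 tested genes, and Ms4a1 beside them, were lower in every Ksp-Cre/Prdm16fl/fl mouse than in both controls relative to Ptprc, where 8.45% of all tested genes were. Single genes were not tested on this scale. Mzb1 spread widely, at 6.84 and 10.7 against 3.98, 2.96 and 18.4, and Jchain came to 25.6 and 30.1 against 22.7, 31.3 and 45.2.

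**Figure D3:**
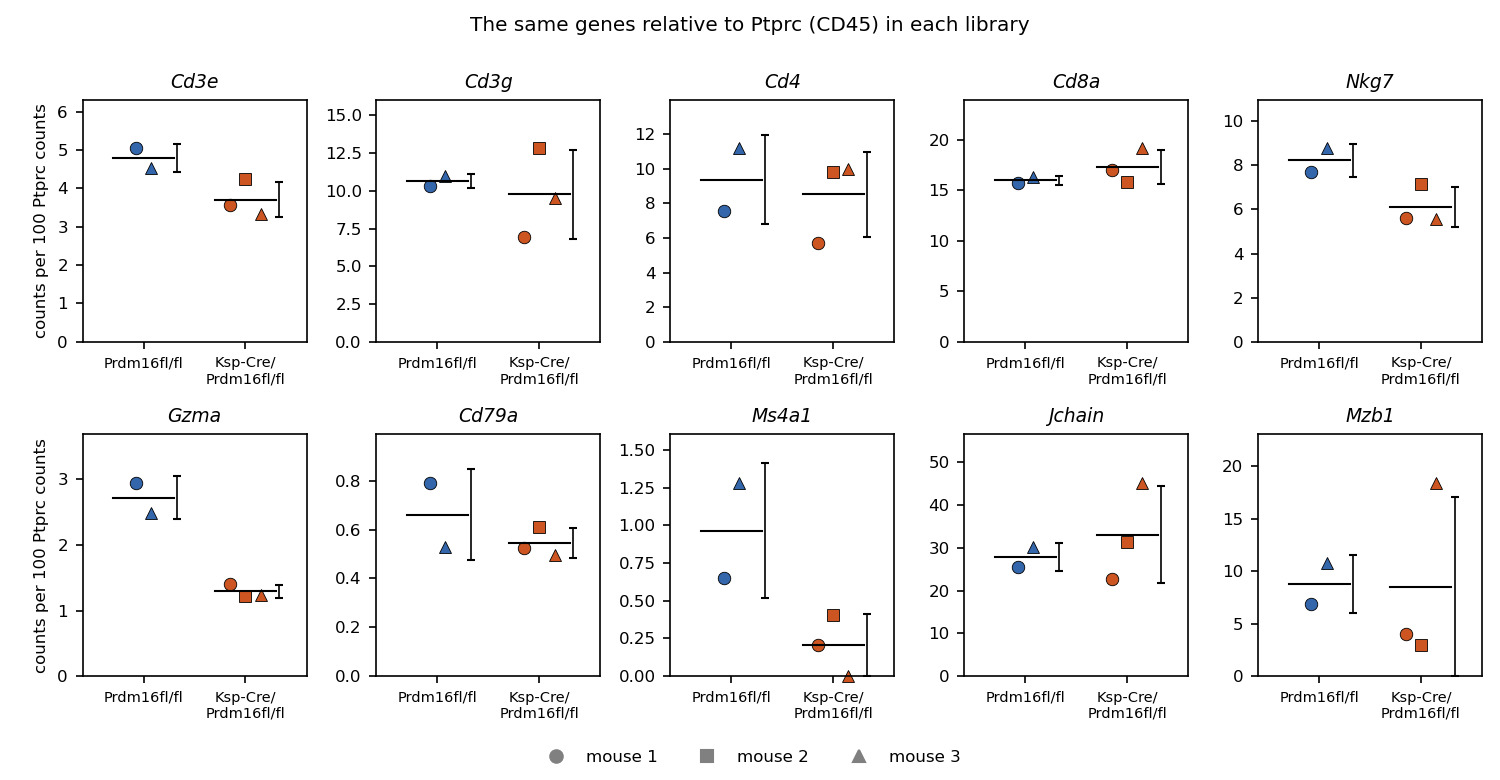
The same 10 genes as counts per 100 Ptprc counts of the same library (y axis, from 0), with the colours, shapes, lines and bars of the plot of CPM by mouse (bars cut at 0 for Ms4a1 and Mzb1). Gzma lies at 1.22 to 1.41 in the 3 Ksp-Cre/Prdm16fl/fl mice, below 2.49 and 2.95 in the controls, and Mzb1 and Jchain are highest in mouse 3 of the Ksp-Cre group.

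Wider lists of genes of the same cells were read in the same fit, and none is independent of the 10 genes, which are part of them. Of 16 tested genes of the T cell receptor complex and its signalling, 6 were above and 10 below 0 with none called, a median log2 fold change of −0.065. Thy1, a surface glycoprotein of T cells that other cells share, stood at 16.2 and 22.6 CPM against 21.2, 27.3 and 11.1 CPM, and Lck, the kinase that starts receptor signalling, at 16 and 15.1 against 17.4, 18.7 and 11.1 CPM. Cd2, an adhesion receptor of T and NK cells, was lower in all 3 Ksp-Cre/Prdm16fl/fl mice, at 5.80 and 5.81 CPM against 3.8, 4.43 and 1.53 CPM, without passing the test (log2 fold change −0.83; edgeR adjusted p = 0.369). Cd247, the ζ chain of the receptor, had a log2 fold change of −0.63 (edgeR adjusted p = 0.378).

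Genes of NK cells and cytotoxic granules, 18 tested of 21 listed, held 14 below and 4 above 0, with a median of −0.47 and none called. The library of Ksp-Cre/Prdm16fl/fl mouse 3 was lowest for 16 of the 18. Gzmb, granzyme B, which triggers apoptosis of target cells, stood at 4.45 and 5.67 CPM in the controls and at 1.87, 4.61 and 0.666 CPM in the Ksp-Cre/Prdm16fl/fl mice, and its log2 fold change of −1.08, close to that of Gzma, came with a wider error (SE 0.69; edgeR adjusted p = 0.450). Ccl5, a chemokine of cytotoxic cells, had −0.40 (edgeR adjusted p = 0.527), and Ctsw, a cysteine protease of these cells, −0.39 (edgeR adjusted p = 0.580). The 4 genes above 0 were Eomes (0.71), Tbx21 (0.41), Fasl (0.28) and Klrd1 (0.056), and none of them passed the test. Relative to Ptprc, 10 of the 18 were lower in every Ksp-Cre/Prdm16fl/fl mouse than in both controls, where 8.45% of all tested genes were. This also held for 7 of 14 kidney tubule and podocyte markers and 3 of 10 dendritic cell markers. It held for 2 of 16 T cell receptor genes and 0 of 15 macrophage and monocyte markers. Ncr1, which encodes the NKp46 receptor that defines NK cells, had 5 and 4 counts in the controls and 4, 1 and 0 counts in the Ksp-Cre/Prdm16fl/fl mice, so it was near the limit of detection in both groups.

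The lists of helper and cytotoxic lineage genes (9 tested, median −0.00092) and of activation, checkpoint and regulatory genes (14 tested, 6 above and 8 below 0, median −0.19) held no called gene. Gata3, which directs helper T cells but is also made by the kidney's collecting duct, had −0.37 (edgeR adjusted p = 0.481), and Zbtb7b, which directs CD4 lineage choice and is not restricted to T cells, 0.10 (edgeR adjusted p = 0.778). Pdcd1, the PD-1 checkpoint receptor of activated T cells, was lower in every Ksp-Cre/Prdm16fl/fl mouse, at 1.62 and 2.94 CPM against 1.19, 1.0 and 0.800 CPM (log2 fold change −1.18; edgeR, unadjusted p = 0.0237, adjusted p = 0.193). Ctla4, a checkpoint receptor that regulatory T cells carry, was also lower in all 3, at 2.70 and 2.08 against 1.76, 0.827 and 1.47 CPM (log2 fold change −0.82; edgeR adjusted p = 0.333). Icos, a costimulatory receptor of activated T cells, was higher in all 3, at 1.96 and 1.94 against 2.61, 3.19 and 2.93 CPM (log2 fold change 0.58, edgeR adjusted p = 0.321). Of the 14 genes, 3 were lower and 1 higher in every Ksp-Cre/Prdm16fl/fl mouse than in both controls, against 21.3% and 20.3% of all genes. Ikzf2 (0.23) and Tnfrsf18 (0.19), which are also high in regulatory T cells, had log2 fold changes above 0. Foxp3 (−0.18), Il2ra (−0.38) and Tnfrsf4 (−0.57), also in this list, had values below 0. None of these genes passed the test. Foxp3 had 5 to 14 counts per library against 126 to 253 for Ikzf2, and which cells Ikzf2 came from was not tested.

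Of 14 tested B cell genes, 2 were above and 12 below 0 with none called and a median of −0.28, and mouse 3 of the Ksp-Cre group was lowest for 11. Blnk, an adaptor of the B cell receptor that macrophages also make, carried most reads, at 45.5 and 43.6 CPM against 44.3, 36.2 and 38.4 CPM. Cd72, a receptor of B cells that macrophages can also carry, stood at 7.66 CPM in mouse 3 of the Ksp-Cre group, against 21.5 to 32.2 CPM in the other 4 libraries. Pou2af1, a coactivator of immunoglobulin genes, had a log2 fold change of −0.85 (edgeR adjusted p = 0.325), and Cr2, complement receptor 2, −0.81 (edgeR adjusted p = 0.297).

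Plasma cell and antibody secretion genes, 14 tested, were 7 above and 7 below 0 with a median of −0.013. One was called: Sdc1, syndecan 1 or CD138, which plasma cells carry and which injured epithelium also makes. It rose from 27.6 and 30.9 CPM to 64.8, 58.8 and 69.6 CPM (log2 fold change 1.14, SE 0.13; edgeR adjusted p = 0.0412), and the edgeR adjusted p was 0.000896 without mouse 3 of the Ksp-Cre group. Without any one of the other 4 libraries it was 0.123 to 0.496 at a log2 fold change of 1.05 to 1.22, in fits that called 0 of all genes tested. Xbp1, also in this list, was higher in all 3 Ksp-Cre/Prdm16fl/fl mice, at 230 and 257 CPM against 289, 267 and 323 CPM. Its log2 fold change was 0.27 (edgeR adjusted p = 0.368). Jchain had a log2 fold change of 0.11, and Prdm1 and Irf4, regulators of plasma cell fate, had 0.20 and 0.26. Neither Xbp1 nor these genes passed the test. In all, 2 of the 14 genes were higher and 5 lower in every Ksp-Cre/Prdm16fl/fl mouse than in both controls, against 20.3% and 21.3% of all genes. Eaf2, a transcription elongation factor, was among the lower, at 14.1 and 19.3 CPM against 8.80, 8.86 and 4.80 CPM (log2 fold change −1.15; edgeR, unadjusted p = 0.00964, adjusted p = 0.131), as were Slamf7 (−0.85) and Derl3 (−0.74), which did not pass the test either. Which cells Sdc1 came from was not tested.

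Genes that draw or hold lymphocytes were read the same way. Of 10 tested genes of lymphoid aggregates and homing, 4 were above and 6 below 0 with none called. Cxcl12, a retention signal for lymphocytes and plasma cells, stood at 88.4 and 144.5 CPM in the controls and 84.4, 82.4 and 61.4 CPM in the Ksp-Cre/Prdm16fl/fl mice (log2 fold change −0.61; edgeR, unadjusted p = 0.0444, adjusted p = 0.254). Cxcr4, its receptor, had 0.14 (edgeR adjusted p = 0.807), and Ccl21a, which attracts T cells and dendritic cells, −0.85 (edgeR adjusted p = 0.476). Cxcl13, which draws B cells into follicles, had 8 and 15 counts in the controls and 1, 1 and 2 counts in the Ksp-Cre/Prdm16fl/fl mice, too few for the test.

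Among 11 tested chemokines and cytokine receptors of T and NK cells, 5 were above and 6 below 0 with none called. Il15, a cytokine that maintains NK and memory CD8 T cells, was lower in all 3 Ksp-Cre/Prdm16fl/fl mice, at 18.9 and 22.9 CPM against 12.9, 12.8 and 10.3 CPM, and stayed short of the threshold (log2 fold change −0.80, SE 0.18; edgeR, unadjusted p = 0.00401, adjusted p = 0.0931). Il18r1, a receptor that primes interferon-γ release, was higher in all 3, at 5.33 and 8.04 against 9.59, 11.0 and 11.7 CPM (log2 fold change 0.69; edgeR adjusted p = 0.213). Cxcl16 and Cxcl10, which attract activated T cells, had log2 fold changes of −0.030 and 0.065. Cxcl10 varied most within the Ksp-Cre group, at 31.1, 69.2 and 5.60 CPM against 33.9 and 33.7 CPM in the controls, with mouse 3 lowest as it was for the T cell genes.

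**Figure D4:**
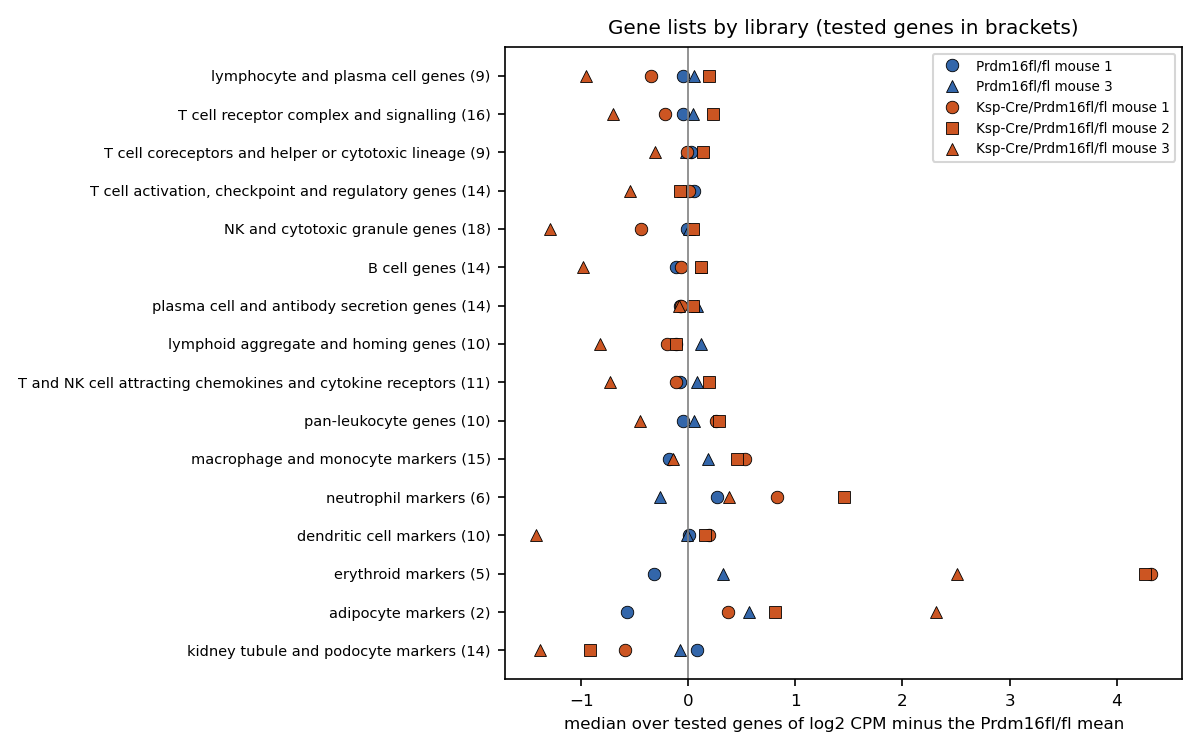
Median over the tested genes of each list (number in brackets, y axis) of log2 CPM minus the mean of the 2 Prdm16fl/fl mice (x axis), 1 point per library. Mouse 3 of the Ksp-Cre group is lowest for most lymphocyte lists and for dendritic cell markers (−1.42) but close to the others for plasma cell and antibody secretion genes (−0.085).

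Markers of other cells varied beside these results, and their part in them was not tested. Relative to the control mean, the median log2 level of the 9 genes in mice 1, 2 and 3 of the Ksp-Cre group was −0.35, 0.19 and −0.96, that of 18 NK and cytotoxic genes −0.44, 0.047 and −1.29, and that of 14 B cell genes −0.068, 0.12 and −0.98. In the same libraries 10 pan-leukocyte genes were at 0.26, 0.29 and −0.45 and 10 dendritic cell markers at 0.19, 0.15 and −1.42, so mouse 3 was low for these leukocytes as well. Kidney tubule and podocyte markers, all 14 of which were below 0 with 1 called (Nphs1, log2 fold change −0.85, edgeR adjusted p = 0.0412), summed to 11528 and 10873 CPM in the controls and 6810, 6183 and 3454 CPM in the Ksp-Cre/Prdm16fl/fl mice.

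Macrophage and monocyte markers were mostly above 0, 12 of 15 with a median of 0.27 and none called, and their sum was 1184 and 1631 CPM against 1971, 1830 and 1055 CPM. Of 6 tested neutrophil markers 5 were above 0, with sums of 20.2 and 18.3 CPM against 28.7, 37.4 and 22.4 CPM. Erythroid markers, a sign of blood in the sample, were higher in all 3 Ksp-Cre/Prdm16fl/fl mice, with sums of 6.67 and 10.8 CPM against 151, 150.3 and 40.5 CPM, and 0 of 5 passed the adjusted threshold in edgeR where 5 of 5 had an unadjusted p under 0.05. Adipocyte markers summed to 30.5 and 30.8 CPM against 36.4, 33.5 and 62.6 CPM, nearly all of it Fabp4, and Adipoq had 1 count or 0 in every library.

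The genes whose pattern over the 5 libraries was nearest to that of 3 of the genes were found among 14680 genes with a mean of at least 20 counts, as the root mean square difference of centred log2 CPM. For Cd3e these were Spata9 (0.049), Dleu2 (0.065) and Gm38424 (0.075). For Cd79a they were Prrt1 (0.074), Gm16793 (0.10) and Tmem260 (0.10), and for Jchain Kcng3 (0.053), Zfp28 (0.059) and Cacna1c (0.070). None of the 9 was in the lymphocyte lists, and with 5 libraries and this many candidates the likeness is a description only.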

How the data were processed

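Kidney cortex RNA of 5 mice was sequenced after oligo(dT) selection. Per the labels and headers, the authors deposited for each mouse raw counts per gene, TPM and FPKM; the TPM was used as deposited for levels between genes, and FPKM only to check units. The submitters' processing notes name CASAVA, featureCounts 2.0.1 and DESeq2 1.16.1. The aligner and the strand setting are not given in the sources used here. The build of the gene positions is not named, since the notes name a human one. These positions do not match GRCm38.p6, the build of the promoter windows, so the 2 sets cannot be laid side by side. The lines of 5 genes broken in the files were rejoined. Genes were filtered with filterByExpr and scaled with TMM in edgeR 4.0.16 (R 4.3.3), and genotypes were compared by its quasi-likelihood test with no covariate, Benjamini-Hochberg adjusted over 16394 genes; a gene was called at an adjusted p under 0.05. CPM is per 1000000 TMM-scaled counts. The test was also run on simulated counts with the same dispersion for every gene and no outlying library. That setting differs from these data, so it does not check the test for libraries such as Ksp-Cre/Prdm16fl/fl mouse 3. No libraries were duplicates (chi-square per degree of freedom 9.89 for the closest pair). Mice are separate animals.

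The 10 genes and all lists were chosen with earlier results of these data known. All 10 are named; of each list, the genes called, or else those with the 2 highest mean counts and the 2 largest log2 fold changes at a mean log2 CPM of at least 0, are named, and further genes were chosen after their values were seen. Some genes that this rule names are not reported here. Alternatives were DESeq2 1.42.0, other scalings and filters, the mouse number as a block and leaving out each mouse.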

Additional observations from a re-analysis of the deposited data

How the results depend on the processing

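Of the 8 or 9 tested genes that each fit gave an adjusted p, 0 were called higher under all 12 alternatives (DESeq2, 3 other scalings, 2 other filters, the mouse number as a replicate block, and 5 fits without 1 mouse). Counts called lower were 0 to 1 over the fits without 1 mouse, the 1 being Mzb1 without Ksp-Cre/Prdm16fl/fl mouse 3, and 0 under the others. Of 106 values for single genes under these alternatives, 93 kept their direction and their side of the threshold, 11 reversed, 1 (Mzb1) passed the threshold and 1 (Cd79a in DESeq2) had no adjusted p; Cd3e, Nkg7, Gzma and Mzb1 never reversed. Over the fits without 1 mouse the log2 fold change ran from −0.66 to 0.16 for Cd3g, −0.61 to 0.11 for Cd4, −0.073 to 0.29 for Cd8a, −0.51 to 0.043 for Cd79a and −0.099 to 0.25 for Jchain. Scaling by library size alone gave 0.00064 for Cd3g and moved the median of all genes from 0.038 to 0.15. With the replicate block Cd8a had −0.12, Jchain −0.095 and the median of the 9 genes was −0.59, against −0.26 without it; that median ran from −0.63 to −0.0059 over the fits without 1 mouse. Deviations of same-numbered mice from their group means had r = −0.0021 and −0.022 across genes. With 2 controls these deviations mirror each other, so this cannot show or exclude a shared litter or batch. The numbers were taken as names of mice in the main fit. Cd79a could not be fitted with at least 10 counts in every library or without Ksp-Cre/Prdm16fl/fl mouse 2. Over all genes, calls were 17 higher and 143 lower in edgeR, 305 and 895 in DESeq2, 14 and 37 with library size scaling, 63 and 408 without the filter, 0 and 0 with the block and without any one of 4 mice, and 1266 and 1787 without Ksp-Cre/Prdm16fl/fl mouse 3. Wherever a value changed, the cause was not tested. A leave-one-out fit that keeps 1 control mouse assumes that it varies like the other group. Depth limits Cd79a and Ms4a1, with at most 17 counts per library.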
